A study of Homo sapiens with 6 samples.

Results

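Genes of the epidermal basement membrane and of the hemidesmosome were examined 48 h after X-rays in HaCaT, a line of human keratinocytes that became immortal spontaneously in culture. The list named 9 genes, and a gene was taken as measured where an array feature carried its symbol alone. This held for 5 of the 9, COL4A1, COL4A2, COL7A1, DST and PLEC, among 22411 genes with a single symbol in all. LAMB3 and LAMA5 lay on features that carry a second symbol as well, and LAMA3 and COL17A1 were on no feature named in the annotation used here, so these 4 genes were not analysed here. The 5 measured genes had 1 feature each.

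The irradiated group held 3 cultures given a single exposure of 20 Gy at 1.15 Gy per min, and the mock group held 3 mock-irradiated cultures (0 Gy). All 6 cultures were of the same cell line, grown in DMEM with fetal bovine serum, with no genetic change named in the labels, and 1 array was run per culture. Cultures were numbered 1 to 3 in both groups, and the same number paired an irradiated with a mock culture. HaCaT is a single immortalised line, so the cultures do not stand for different donors. The study set out to compare coding and long non-coding RNA of both groups.

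The basement membrane is the thin sheet of matrix to which the lowest layer of the epidermis is fixed. Type IV collagen, whose COL4A1 and COL4A2 chains join into one triple helix, forms its network, while laminins, with chains such as those of LAMA3 and LAMB3, link that sheet to the cell. On the cell side, hemidesmosomes hold keratin filaments to the membrane through integrin alpha6 beta4 and the plakin proteins plectin and BPAG1e, products of PLEC and DST. On the dermal side, anchoring fibrils of type VII collagen, the product of COL7A1, tie the sheet to the tissue beneath. Inherited loss of several of these proteins causes the blistering disease epidermolysis bullosa.

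COL4A1 and COL4A2 lie head to head on chromosome 13 and are transcribed away from each other. RefSeq start sites for both genes on GRCh38.p14 leave 126 bases between them, shown here on the strand of COL4A2. They are shown because the signals of both genes ran alike over the 6 arrays (Pearson r = 0.969). Each ran closer still to another gene, COL4A1 to ZNF367 (r = 0.993) and COL4A2 to SPDL1 (r = 0.998). The part of the shared stretch in this likeness was not tested. The motifs searched, on both strands, were the CCAAT box (CCAAT), the GC box (GGGCGG) and the TATA box (TATAAA), and matches are in capitals.
COL4A1 and COL4A2, between the starts, chr13:110307158-110307283, plus strand: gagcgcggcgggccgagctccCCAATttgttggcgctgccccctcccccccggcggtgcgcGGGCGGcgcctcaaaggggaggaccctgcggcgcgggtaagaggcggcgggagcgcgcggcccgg
The stretch held 1 CCAAT box and 1 GC box, which do not overlap, and no TATA box, with 80.2% G and C. Among 35116 RefSeq promoter windows cut to the same 126 bases before the start, 21.1% held a CCAAT box, 34.6% a GC box, 7.39% both and 5.87% a TATA box. The match is a description of these letters and not of a bound site.

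DST has 3 start sites in the RefSeq table, and its transcripts encode proteins for different tissues, the epithelial form BPAG1e among them. The array feature carries 1 value for the gene, so signal from the different starts cannot be told apart. The 126 bases before each start, on the minus strand of GRCh38.p14, are shown because DST had the widest difference of the 5 genes.
DST, the start farthest upstream, chr6:56954831-56954956: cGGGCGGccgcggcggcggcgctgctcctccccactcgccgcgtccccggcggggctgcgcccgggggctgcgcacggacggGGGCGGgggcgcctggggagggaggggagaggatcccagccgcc
DST, the middle start, chr6:56851906-56852031: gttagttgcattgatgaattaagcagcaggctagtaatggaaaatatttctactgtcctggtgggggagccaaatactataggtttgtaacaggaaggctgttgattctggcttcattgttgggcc
DST, the start farthest downstream, chr6:56642890-56643015: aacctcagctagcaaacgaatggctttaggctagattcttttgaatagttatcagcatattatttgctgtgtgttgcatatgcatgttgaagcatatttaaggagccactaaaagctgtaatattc
The first stretch held 2 GC boxes at 85.7% G and C. The other two held none of the 3 motifs, at 42.9% and 35.7% G and C.

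None of the measured genes passed the test for a difference after irradiation. Signals are on a log2 scale, and a gene entered the test where its mean over the 6 arrays lay above 6.01, the mean of the brightest of 23 background control sets. COL4A1, COL4A2, DST and PLEC entered and COL7A1 did not. In a limma fit with the culture number as a block over the 9324 genes above this limit, with Benjamini-Hochberg adjustment and a threshold of 0.05, 0 of the 4 were called (1 at unadjusted p under 0.05). The background share was 5.01% of genes called in either direction, 1.30% higher and 3.71% lower in irradiated cells, and 28.9% at unadjusted p under 0.05. Without the block, limma called 0 of the 4 genes as well, against 0% of all genes. At unadjusted p under 0.05 that fit held 0 of the 4 and 3.35% of all genes.

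Over all genes above the limit, the median difference, irradiated minus mock, was -0.089, and 28.2% of them were higher in irradiated cells. Over the 13087 genes at or below the limit the median was 0.066 and 71.7% were higher. Medians of the genes above the limit ran from 8.23 to 8.26 on irradiated arrays and from 8.30 to 8.37 on mock arrays.

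**Figure D1:**
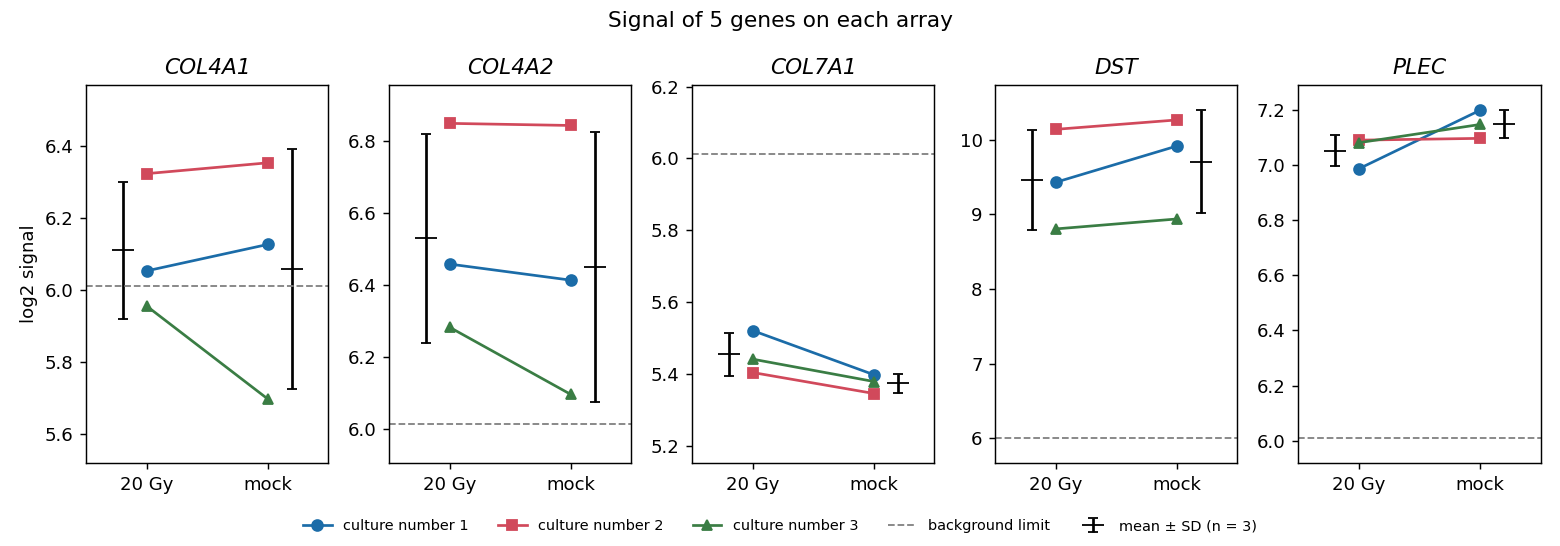
Log2 signal (vertical axis, scaled per gene) of COL4A1, COL4A2, COL7A1, DST and PLEC on each array of irradiated (20 Gy, left) and mock cultures (right). Lines join cultures of the same number, black bars are mean ± SD (n = 3 each) and the dashed line is the background limit of 6.01. For COL4A1, COL4A2 and DST the lines lie apart by culture number more than they slope.

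Among the plakins, DST, whose epithelial product BPAG1e binds keratin filaments inside the hemidesmosome plaque, had log2 signals of 9.43, 10.14 and 8.80 on irradiated arrays 1, 2 and 3, against 9.91, 10.26 and 8.94 on mock arrays 1, 2 and 3. Each irradiated culture was below the mock culture of its number, as for 41.9% of the genes above the limit, yet the groups overlapped widely. DST averaged 9.46 ± 0.67 in irradiated and 9.70 ± 0.69 in mock cultures (SD, n = 3 each). The paired difference was -0.248 (SE 0.095, 95% interval -0.477 to -0.019), a ratio of 0.842. It did not pass the limma test (adjusted p = 0.150, unadjusted p = 0.0376).

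Of the genes above the limit, 23.6% had an unadjusted p under 0.05 with a lower signal in irradiated cells, and 19.4% had a difference larger in size than that of DST. Culture number 1 gave -0.485, while numbers 2 and 3 gave -0.126 and -0.133. Without culture number 1 the difference of DST was -0.130 (adjusted p = 0.402), and with each array centred it was -0.149 (adjusted p = 0.374).

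PLEC encodes plectin, a very large linker that joins integrin beta4 to keratin filaments. Its log2 signals were 6.99, 7.09 and 7.08 on irradiated arrays, against 7.20, 7.10 and 7.15 on mock arrays. All 3 irradiated values lay below all 3 mock values, as they did for 7.69% of the genes above the limit. The gap between the groups was narrow, since number 2 differed by -0.0065 only. PLEC averaged 7.05 ± 0.057 in irradiated and 7.15 ± 0.051 in mock cultures (SD, n = 3 each).

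The paired difference of PLEC was -0.095 (SE 0.073, 95% interval -0.271 to 0.081), close to the median of -0.089 over all genes above the limit, and it did not pass (limma adjusted p = 0.423). With each array centred on the median of those genes, the difference of PLEC was 0.0040 (adjusted p = 0.980).

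Neither network collagen passed the test. COL4A1 had log2 signals of 6.05, 6.32 and 5.95 on irradiated arrays, against 6.13, 6.35 and 5.70 on mock arrays. Its level lay above the background limit on 2 irradiated arrays and on 2 mock arrays, and below it in both cultures of number 3. The size of any COL4A1 difference is thus poorly determined.

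Irradiated cultures 1 and 2 were slightly lower than their mock cultures for COL4A1 (-0.073 and -0.030), and irradiated culture 3 was higher (0.258). The paired difference of COL4A1 was 0.052 (SE 0.085, 95% interval -0.152 to 0.255, limma adjusted p = 0.716), from 6.11 ± 0.19 in irradiated against 6.06 ± 0.33 in mock cultures (SD, n = 3 each). Without culture number 3 it was -0.052 (adjusted p = 0.737), so its sign rests on 1 pair. With each array centred it was 0.150 (adjusted p = 0.322).

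COL4A2, the partner chain, had log2 signals of 6.46, 6.85 and 6.28 on irradiated arrays, against 6.41, 6.84 and 6.09 on mock arrays. It lay above the background limit on all 6 arrays, and irradiated values were higher within each number by 0.045, 0.0058 and 0.186, while the groups overlapped. COL4A2 averaged 6.53 ± 0.29 in irradiated and 6.45 ± 0.38 in mock cultures (SD, n = 3 each). The paired difference was 0.079 (SE 0.070, 95% interval -0.090 to 0.248), which did not pass (limma adjusted p = 0.483). Higher values in all 3 pairs were found for 9.94% of the genes above the limit. For both collagen chains the pair numbered 3 gave the widest difference, and that pair also had the lowest signals. Without it, the difference of COL4A2 was 0.025. The scaling moved it as well, to 0.121 after quantile normalization, 0.131 after cyclic loess and 0.178 with each array centred (adjusted p = 0.197).

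COL7A1, the chain of the anchoring fibril, lay below the background limit on 6 of 6 arrays. Its log2 signals were 5.52, 5.41 and 5.44 on irradiated arrays, against 5.40, 5.35 and 5.38 on mock arrays, averaging 5.46 ± 0.059 and 5.38 ± 0.026 (SD, n = 3 each). All 3 irradiated values were above all 3 mock values, as for 16.1% of the genes at or below the limit. In a paired limma fit over all 22411 genes, which called 0 of them, COL7A1 differed by 0.081 (95% interval -0.055 to 0.217, adjusted p = 0.411), near the median of 0.066 for genes of this signal class. With each array centred on genes above the limit, its difference was 0.180 (adjusted p = 0.124). That limma fit had 21.9% of genes at unadjusted p under 0.05 and COL7A1 was not among them. The limit is the mean of the brightest of 23 control sets, most of which lay below COL7A1. A signal under that limit is not a firm measure of the gene's level.

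**Figure D2:**
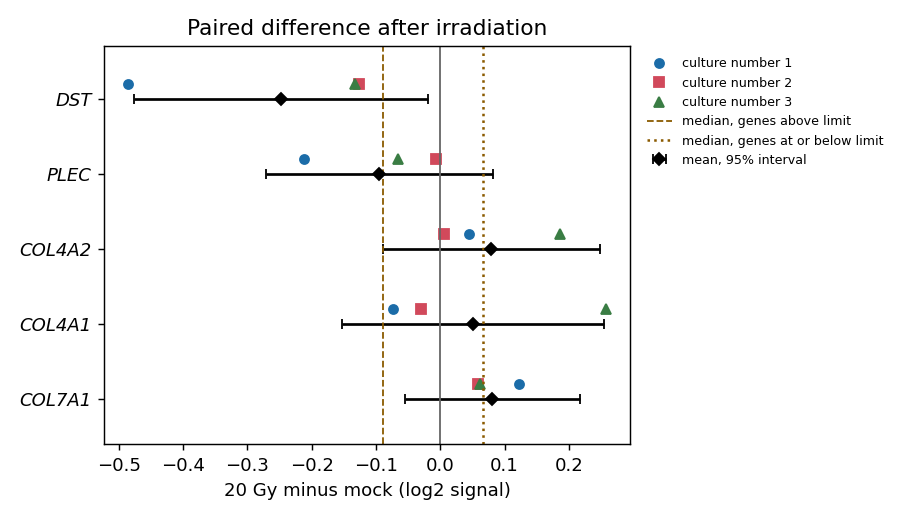
Irradiated (20 Gy) minus mock difference in log2 signal (horizontal axis) for each gene. Diamonds and bars are the paired limma estimate and its 95% interval, small symbols the 3 culture numbers, and the dashed and dotted lines the medians of genes above (-0.089) and at or below the background limit (0.066). The interval of DST runs from -0.477 to -0.019, and those of PLEC, COL4A1, COL4A2 and COL7A1 include 0.

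The level of DST and of both collagen IV chains differed between culture numbers more than between irradiated and mock cultures. The measures are unlike. The range is the widest gap between 3 culture means, whereas the irradiation difference averages 3 pairs, so pairs of opposite sign cancel. DST averaged 9.67, 10.20 and 8.87 over the 2 arrays of culture numbers 1, 2 and 3, a range of 1.33 against an irradiation difference of 0.248 in size. COL4A2 averaged 6.43, 6.85 and 6.19, a range of 0.657. COL4A1 averaged 6.09, 6.34 and 5.83, a range of 0.512, beside pair differences of -0.073, -0.030 and 0.258. All 3 genes were highest in number 2 and lowest in number 3.

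An F-test on culture number in the same limma fit called DST (adjusted p = 7.02e-04), COL4A2 (adjusted p = 0.00277) and COL4A1 (adjusted p = 0.0146). These are 3 of 4 genes, against a background of 61.0% of genes above the limit. Without culture number 2 it called 1 of the 4. PLEC did not pass, with averages of 7.09, 7.09 and 7.11 over the same numbers, a range of 0.021 (adjusted p = 0.968), where the median range over genes above the limit was 0.424. COL7A1, below the limit, had a range of 0.084 (adjusted p = 0.615 over all genes).

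Culture number 3 also differed in keratins of the spinous layer. KRT1, a keratin made when keratinocytes leave the basal layer, averaged 6.16, 5.94 and 16.7 over culture numbers 1, 2 and 3, and KRT10, its partner, 8.24, 7.91 and 13.3. KRT14, a basal keratin, averaged 16.0, 16.4 and 17.2. The part of these differences in the levels of DST, COL4A1 and COL4A2 was not tested.

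**Figure D3:**
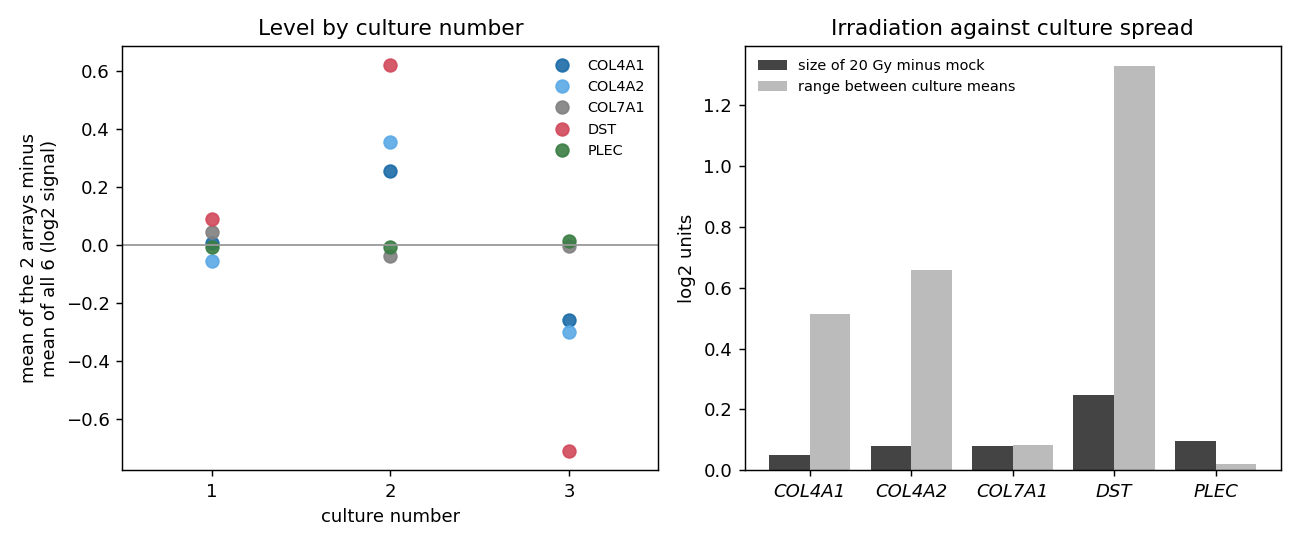
Left, mean log2 signal of the irradiated and the mock array of each culture number minus the gene's mean over all 6 arrays. Right, size of the irradiated minus mock difference (dark bars) beside the range between culture number means (light bars), in log2 units. DST spans 1.33 between cultures against 0.248 for irradiation, whereas PLEC spans 0.021.

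For each gene in the test, the gene above the limit with the most similar pattern over the 6 arrays was taken by Pearson correlation after centring each array on its median, as a description. The 6 arrays come from 3 culture numbers, so for DST, COL4A1 and COL4A2 such values mostly reflect differences between cultures. PLEC hardly differed between culture numbers (range 0.021), and its rank correlation with the gene named below was lower (Spearman 0.714). COL4A1 ran closest to ZNF367 (r = 0.993), COL4A2 to SPDL1 (r = 0.998), DST to PRR14L (r = 1.00) and PLEC to MAP7 (r = 0.978). Between COL4A1 and COL4A2 the value was 0.969, between DST and each collagen chain 0.839, and between PLEC and DST -0.447.

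Other genes of the basement membrane zone, held in 6 lists of 74 genes chosen with earlier results of these data known, were read beside the measured members. Of the 74, 71 were measured and 44 lay above the limit, of which 0 were called higher and 3 lower in irradiated cells. The called share of 6.82%, all lower, stands beside 5.01% called in either direction over all genes above the limit, 3.71% lower and 1.30% higher. The difference between these shares was not tested. The median difference of the 44 genes was -0.125, against -0.089 over all genes above the limit. Laminin chains had 3 genes above the limit, and LAMB2, the beta chain of several laminins of vessels and muscle, fell by 0.352 (SE 0.069, limma adjusted p = 0.0443), with signals of 6.80, 6.23 and 7.01 on irradiated arrays against 7.10, 6.54 and 7.45 on mock arrays. Its call was lost after quantile normalization (adjusted p = 0.0859), after centring each array (adjusted p = 0.114) and with any 1 of the 3 culture numbers left out. With 1 number left out the LAMB2 difference ran from -0.376 to -0.308, and 66 to 251 genes were called in all, against 467. LAMB1 and LAMC1 did not pass.

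The other plakins, the family of DST and PLEC, had 5 of 5 genes above the limit and lower on average, and 2 of them were called. Their median was -0.253, against -0.089 over all genes above the limit. Of all those genes, only 28.2% were higher in irradiated cells, and 5.01% were called, 3.71% as lower. EPPK1, epiplakin, which binds keratin filaments, fell by 0.508 (SE 0.074, limma adjusted p = 0.0266). Its signals were 6.43, 6.53 and 6.43 on irradiated arrays against 6.89, 7.17 and 6.85 on mock arrays. The groups did not overlap, with irradiated values lower, as for 7.69% of the genes above the limit. EPPK1 kept its call after quantile normalization (adjusted p = 0.0404), cyclic loess (0.0483), centring (0.0449) and without culture number 1 (0.0486). Without number 2 it lay at -0.443 (adjusted p = 0.0892) and without number 3 at -0.552 (adjusted p = 0.0554), and did not pass. DSP, desmoplakin, which ties keratin to desmosomes, fell by 0.425 (SE 0.076, limma adjusted p = 0.0360), and by 0.326 with each array centred (adjusted p = 0.0789). The DSP call was also lost with any 1 of the 3 culture numbers left out, at differences from -0.439 to -0.414. Without the block or without the signal filter, 0 of LAMB2, EPPK1 and DSP were called (limma adjusted p of 0.9995 for each without the block, and of 0.0965, 0.0880 and 0.0888 without the filter). EVPL, PPL and MACF1 did not pass. Beside the decreases of LAMB2, EPPK1 and DSP, the spinous keratins KRT1 and KRT10 were also called lower, at -0.532 and -0.357 (limma adjusted p = 0.0470 for each), and KRT1 lay above the limit on 1 irradiated and 3 mock arrays, reaching its mean mainly through culture number 3. The calls of KRT1 and KRT10 were also lost without the block, without the filter and with any 1 of the 3 culture numbers left out. The part of these keratins in the decreases was not tested.

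Hemidesmosome receptors and keratin partners had 8 of 8 genes above the limit and 0 called. Those with the smallest p were FERMT1, kindlin-1, an activator of integrins, at 0.314 (limma adjusted p = 0.0862), and KRT14, at -0.254 (limma adjusted p = 0.185). ITGA6 and ITGB4, which form the hemidesmosome integrin, lay at -0.024 and -0.137. Other basement membrane components had 3 of 18 genes above the limit and 0 called, with TINAGL1, a matricellular protein, at 0.359 (limma adjusted p = 0.0553) and AGRN, the proteoglycan agrin, at -0.188 (limma adjusted p = 0.136). TINAGL1 passed with each array centred (adjusted p = 0.0436) and after quantile normalization (adjusted p = 0.0494), which were 2 of 12 alternatives. It did not pass after cyclic loess (adjusted p = 0.0502), without the block (0.9995) or without the filter (0.121). With 1 culture number left out the limma adjusted p ran from 0.0913 to 0.238.

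Collagen maturation and secretion genes had 15 of 17 measured genes above the limit and 0 called, with 7 higher and 8 lower on average. MIA3, which loads collagen for export from the endoplasmic reticulum, lay at -0.341 (limma adjusted p = 0.0545), and P3H1, a collagen prolyl hydroxylase, at -0.223 (limma adjusted p = 0.0922). Proteases that process or degrade basement membrane proteins, and their inhibitors, had 10 of 15 above the limit and 0 called. BMP1, which cleaves procollagen VII and laminin chains, lay at -0.176 (limma adjusted p = 0.175), and MMP14, a membrane-bound collagenase, at -0.197 (limma adjusted p = 0.221).

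**Figure D4:**
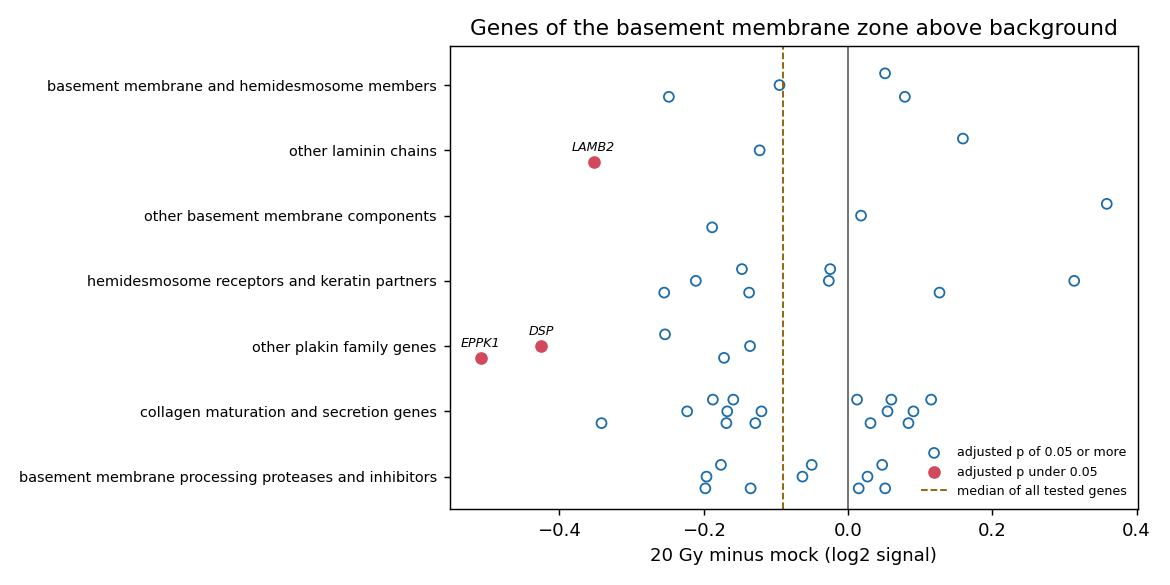
Irradiated (20 Gy) minus mock difference in log2 signal (horizontal axis) of each gene above the background limit, by list, with filled points for adjusted p under 0.05. Vertical offsets only separate points. LAMB2, EPPK1 and DSP are the called genes, all lower in irradiated cells, and the 4 members of the top row are open.

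The label of the cells was read from fixed markers. Of 8 measured keratinocyte markers 8 had a mean above the limit and 2, KRT1 and KRT10, were called lower in irradiated cells (0 after quantile normalization, cyclic loess or centring), whereas 0 of 6 fibroblast, 0 of 5 endothelial and 0 of 4 melanocyte markers did. Mean log2 signals of the fibroblast list ran from 4.33 to 4.43 on irradiated and from 4.23 to 4.40 on mock arrays. Fibroblasts and vessels are further sources of type IV collagen in skin, and their markers were below the background limit in both groups. The source of the type IV collagen signal was not tested. In bulk RNA, fewer cells of a kind and less RNA per cell cannot be told apart.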

How the data were processed

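Total RNA of 6 HaCaT cultures was labelled with biotin and run on 1 array each. The authors deposited log2 signals per transcript cluster, made with RMA per the submitters' processing notes, which give no version. RMA involves background correction, quantile normalization and probe summarisation, so differences are those of the scaled signals. Genome build and array library: not given in the sources used here. An exon-level table, also deposited, was not used, since no table here pairs its features with genes.

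Of 67528 transcript clusters, 23781 carried 1 symbol and 1543 several in the platform annotation. Symbols were updated through GRCh38.p14 gene tables (21497 by gene number, 1974 by symbol, 306 by synonym, 4 kept), and the brightest cluster stood for each of 22411 genes. Testing used limma 3.58.1 under R 4.3.3 (lmFit, eBayes with a variance trend, two-sided, 95% intervals) on deposited values, and the script was tested on simulated data.

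Same-numbered cultures were taken as pairs. The correlation of deviations from the group mean was 0.523 for number 1, 0.644 for number 2 and 0.705 for number 3, against -0.555 to 0.072 across numbers. Deviations cancel over the 3 arrays of a group, so positive values for the same number push those across numbers down. The contrast is thus partly fixed in advance. The labels call the cultures biological replicates without naming separate days. The fit kept the block because the members' rule compares by number. Members, lists, the signal limit and tests were chosen with earlier results of these data known. The genes named were the members, up to 4 called genes per list or else the 2 with the smallest p, and the most similar gene per member. Genes outside that rule (KRT1, KRT10, ITGA6, ITGB4, LAMB1, LAMC1, EVPL, PPL, MACF1) were chosen after their values were seen. The number of arrays limits the precision.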

Additional observations from a re-analysis of the deposited data

How the results depend on the processing

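Of the 5 measured members, 0 of the 4 tested were called under any of the 12 alternatives, with adjusted p from 0.145 to 0.9995 for DST. The signs of DST, COL4A2 and COL7A1 held in each alternative run (the stricter filter left out COL4A1, COL4A2 and COL7A1), while PLEC turned to 0.0040 with each array centred and COL4A1 ran from -0.052 to 0.114 with 1 culture number left out. With 1 number left out the ranges were -0.309 to -0.130 for DST, -0.139 to -0.036 for PLEC, 0.025 to 0.116 for COL4A2 and 0.060 to 0.092 for COL7A1. Centring each array moved PLEC, COL4A1, COL4A2 and COL7A1 beyond their ranges with 1 number left out, to 0.0040, 0.150, 0.178 and 0.180 in that order. For DST it gave -0.149, inside its range. Quantile normalization and cyclic loess gave 0.121 and 0.131 for COL4A2. The F-test between cultures called 1 member with the stricter filter, which tests only DST and PLEC, and 1 to 3 with 1 number left out.

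Over all genes, the fit without the replicate block, the fit without a filter and the fit over all transcript clusters each called 0 (0 higher, 0 lower), with lowest adjusted p of 0.195, 0.0759 and 0.210. Without the block 312 genes were at unadjusted p under 0.05, and without a filter 4905 were. Quantile normalization, cyclic loess and centring called 203, 179 and 269 genes, 84, 63 and 89 of them lower, against 467 and 346. Leaving out 1 number called 66 to 251 genes, 40 to 94 higher and 26 to 157 lower. The lists followed. Laminin chains went to 0 called and the other plakins to 0 without the block, without a filter and over all clusters. Quantile normalization, cyclic loess and centring left 0 laminin chains and 1 plakin, EPPK1. The stricter filter did not test LAMB2 or EPPK1, leaving 0 laminin chains and 1 plakin, DSP (adjusted p = 0.0329). Leaving out 1 number left 0 laminin chains and 0 to 1 plakins. Other basement membrane components had 1 call after quantile normalization and centring. The unfiltered fits held more features, and the cause of these shifts was not tested. Depth is not defined for arrays, and signal near or below the background limit weakens the estimates for COL4A1 and COL7A1.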
